A study of Arabidopsis thaliana with 26 samples.

Results

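The response of wild-type Arabidopsis thaliana to 5-azacytidine was measured by RNA sequencing of whole plants with root. Treated wild type had germinated and grown on agar medium with 100 µM 5-azacytidine, and untreated wild type on the same medium with 0 µM. All plants were of the Columbia-0 background, were 10 days old when collected, and carried no transgene that the labels name. Each group held 3 biological replicates, with 3 technical libraries for each treated and 2 for each untreated replicate, so the comparison used 15 of the 26 libraries and 6 of the 10 biological replicates of the series. The remaining 11 libraries came from an msh1 memory line, the progeny of plants in which the nuclear gene MSH1 had been suppressed, grown with and without the drug. The members were chosen by their labels alone.

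5-azacytidine is an analogue of cytidine. Cells take it up, phosphorylate it and build it into RNA and, after reduction, into DNA, where a cytosine methyltransferase that reaches the analogue stays bound to it. Methylation is then lost as DNA replicates, and the trapped enzyme is a lesion of the DNA. In plants, cytosine methylation keeps transposons and a small number of ordinary genes silent, and the enzymes that place it (MET1, CMT3 and the RNA-directed pathway) depend on the chromatin remodeller DDM1.

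Gene counts summed over technical libraries were 13544859, 13079096 and 12689700 in treated replicates 1 to 3, and 12548668, 12828449 and 13116891 in untreated replicates 1 to 3. Levels below are CPM, gene counts per 1e6 gene counts of the library after scaling. They are not per length, so only levels of the same gene are compared. A gene was called, and is said to have risen or fallen, at a Benjamini-Hochberg adjusted p under 0.05 in the quasi-likelihood test of edgeR over all 22031 tested genes. Whether replicates came from separate cultures is not in the labels, and p-values then measure only the spread between these samples, which may be technical. Untreated replicate 3 stood apart from the other untreated replicates. On the first principal component of the 6 replicates, which held 59.6% of the variance, treated replicates lay at 29.0, 28.9 and 25.4, against -38.2, -33.7 and -11.2 for untreated replicates 1, 2 and 3. Untreated replicate 3 was also the untreated replicate closest to the treated ones for 894 of the 1406 called genes without overlap, so both counts are given where a list's count of called members differed without it.

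The tissue label was set against markers. Summed over 8 shoot markers (chlorophyll-binding proteins, Rubisco subunits and the like) the level was 34032 to 35959 CPM in treated and 30078 to 39304 CPM in untreated replicates, and none of the 8 was called. Root markers were also present: 8 genes of the endodermis, the inner cell layer that seals the root, summed to 34.5 to 46.5 CPM in treated and 70.9 to 82.3 CPM in untreated replicates, and 7 of root hairs to 18.4 to 24.8 CPM in treated and 22.1 to 35.4 CPM in untreated replicates. Of 9 seed markers, SESA3 was at 0 in all 6 replicates and the sum was 0.387 to 0.628 CPM in treated and 0.748 to 1.103 CPM in untreated replicates. Of 5 flower markers AP1 was at 0 throughout, but SEP3, a floral MADS-box gene, had 3.92, 3.41 and 5.81 CPM in treated and 1.16, 1.497 and 0.515 CPM in untreated replicates (log2 fold change 2.05, SE 0.41, edgeR adjusted p = 0.0121).

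Wild type changed 1408 genes on azacytidine, 6.39% of those tested. Of these 665 rose, 3.02% of all, and 743 fell, 3.37% of all, with 267 and 283 changing at least 2-fold. The median log2 fold change over all tested genes was 0.0015. Replicates of the groups overlapped for 2 of the 1408. Without untreated replicate 3 the number was 2500, and 1282 of the 1408 were among them. Without any other replicate it was 432 to 835.

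Loci that are kept silent by DNA methylation were among the largest changes. SDC, an F-box gene, is silenced through methylated tandem repeats just before its start. These repeats are printed here because treated and untreated replicates of this gene lay far apart. The sequence is from the RefSeq genome TAIR10.1, ends at the base before the annotated start of the gene, and has in capitals the longest word that occurs 4 times without a mismatch, a 21-base word that returns every 32 bases.
SDC promoter, chr2:7681912-7682161, plus strand: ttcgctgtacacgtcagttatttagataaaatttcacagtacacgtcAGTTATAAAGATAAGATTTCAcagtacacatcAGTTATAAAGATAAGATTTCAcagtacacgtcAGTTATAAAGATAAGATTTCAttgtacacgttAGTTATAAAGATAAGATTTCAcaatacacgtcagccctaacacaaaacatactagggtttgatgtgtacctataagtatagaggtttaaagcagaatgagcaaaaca
Of 20694 windows of 250 bases before tested protein-coding genes, 116 held any word of that length 4 times, mostly runs of simple sequence. In 2 of these, that of SDC included, the word held at least 8 different 3-base words.

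SDC (AT2G17690) had 8.14, 8.83 and 8.95 CPM in treated replicates and 0.249, 0.236 and 0.662 CPM in untreated replicates. The groups were far apart and the treated replicates were close to each other (log2 fold change 4.44, SE 0.36, edgeR adjusted p = 1.81e-05). SDC had 3, 3 and 9 untreated counts. It passed the filter on low counts only through the treated plants, so its call is a description. Of the exon bases of SDC, 80.2% lie under exons of the other strand, and the library kit does not mark the strand, so sense and antisense reads cannot be told apart there. MRU1 (AT5G35490), which has no such overlap, had 25.9, 17.1 and 21.0 CPM in treated and 1.41, 1.65 and 1.62 CPM in untreated replicates (log2 fold change 3.76, SE 0.39, edgeR adjusted p = 0.000417). QQS (AT3G30720), a gene found only in Arabidopsis thaliana that affects starch content, had 33.5, 23.6 and 36.1 CPM in treated and 2.24, 2.84 and 0.882 CPM in untreated replicates. The lowest treated replicate was thus above the highest untreated replicate for all 3 genes.

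FWA, an imprinted homeobox gene that is silent outside the endosperm, behaved less evenly. It had 54, 12 and 107 counts in treated replicates 1 to 3 and 0 counts in each untreated replicate. Against a floor of 3 counts per untreated replicate it was at least 19.0-fold higher. It passed the filter on low counts only through the treated plants, so its call is a description, and the call was lost without treated replicate 1, untreated replicate 1 or untreated replicate 2. The list held 15 loci, of which 9 passed the filter. HDG3, HDG9, MYB3R2, AGL36 and SUP were at 0 in all 6 wild-type replicates and were not tested. The filter thus left out loci that stayed silent under treatment, so the count and median describe only the 9. Of 9 tested loci of the list 4 were called higher, SDC and FWA included, and none lower. Of all tested genes 3.02% rose and 3.37% fell. The median log2 fold change was 2.01 whether FWA stood at its fitted value or at its bound. Leaving out untreated replicate 3 gave 5 called higher.

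Rises from few or no untreated counts were not limited to the loci above. Methylation of these genes was not measured in the RNA libraries, and FWA is counted again here. Of the genes that rose, 105 had at most 3 counts over all untreated replicates together, and 77 of these had 0. Such genes passed the filter on low counts only through the treated plants, so they had to differ, and the numbers describe them without a test. They comprised 86 protein-coding genes, 15 long noncoding RNAs and 4 other noncoding RNAs. No gene fell to 0 counts in all treated replicates. Against the floor of 3 counts per replicate, 32 of the 77 were at least 10-fold higher. The largest bound was 75.6-fold, for the noncoding RNA AT2G15555, with 281, 188 and 225 counts in treated and 0 in each untreated replicate.

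Of these protein-coding genes 38, 44.2%, are annotated as uncharacterized proteins. Product names that recurred among the rest were grouped after the values were seen, and 3 such groups held 6 genes each. Ulp1 proteases are a family that in plants is often carried by transposons of the Mutator class. Just 6 genes of that name were tested, all of them near silent in untreated plants, so the filter admitted none that stayed silent under treatment. AT5G45570 had 211, 107 and 203 counts in treated replicates against 1, 1 and 0 in untreated replicates, and AT5G28810 had 148, 99 and 142 against 0 in each. Of 26 tested genes with a beta-galactosidase product name 7 rose, 6 of them from at most 3 untreated counts, and 2 fell. AT3G44265 had 162, 135 and 173 counts in treated replicates and 0 in each untreated replicate, while the ordinary cell-wall gene BGAL4, whose call was lost without treated replicate 1, fell to 480, 492 and 434 counts in treated replicates, against 1252, 1796 and 849 in untreated ones. Of 22 tested genes named for a reverse transcriptase, a retrotransposon or a transposase 9 rose and none fell, 6 of the 9 from at most 3 untreated counts, among them AT2G06425, an En/Spm-type transposase with 28, 16 and 29 counts in treated replicates and 0 in each untreated replicate. Members of such families are often near-identical copies. Reads without a unique place were tallied apart from the genes, so these counts hold uniquely placed reads only. How a unique place was decided is not given, so single members are uncertain.

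**Figure D1:**
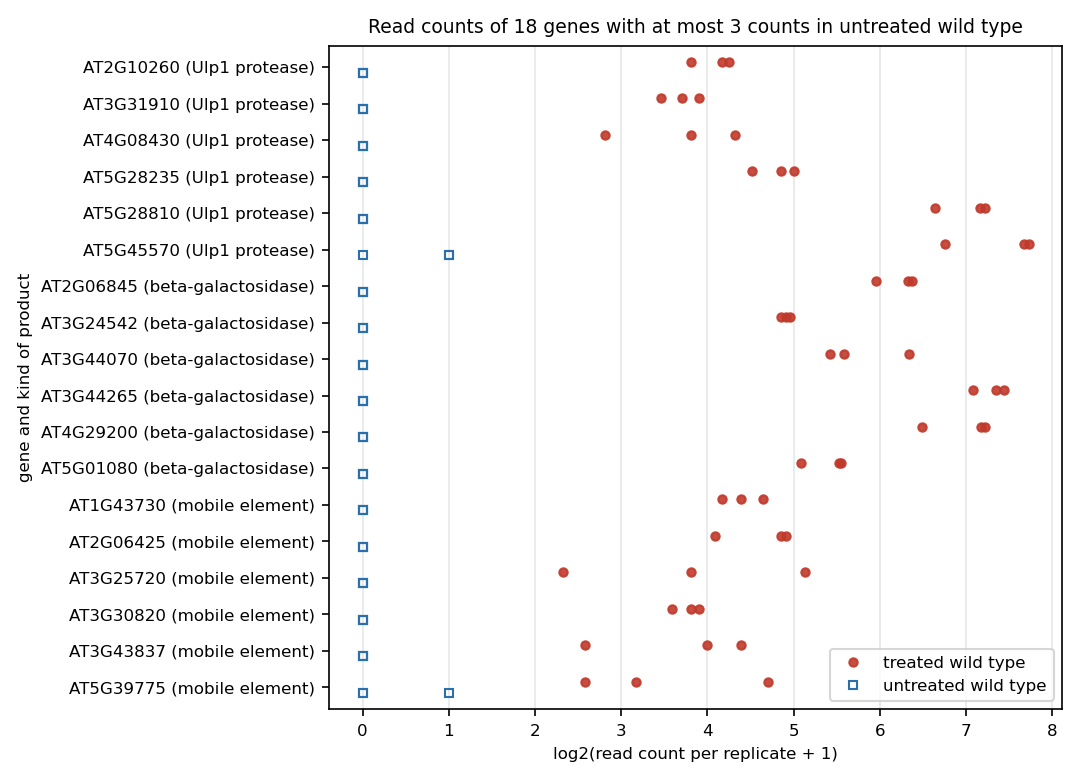
Read counts per replicate, as log2(count + 1), of the 18 genes with a Ulp1 protease, beta-galactosidase or mobile element product that rose from at most 3 untreated counts in all. Filled circles are the 3 treated wild-type replicates and open squares the 3 untreated ones, which lie at 0 or 1 count for every gene shown.

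The genes with a reference symbol among the 105 were FWA, OFP9, CYP710A3, CRK37, HDG4, HISN6B, APD3 and GRP19. OFP9, a gene of the OVATE family of transcriptional repressors, had 36, 33 and 31 counts in treated replicates and 0 in each untreated replicate, at least 10.9-fold higher. HISN6B, which encodes an enzyme of histidine synthesis and has a close copy in HISN6A, had 28, 16 and 22 counts in treated replicates against 0, 1 and 0 in untreated ones. HDG4, a homeobox gene of the same class as FWA, had 8, 7 and 4 counts in treated replicates and 0 in each untreated one. Of 1067 tested long noncoding RNAs 60 rose, 5.62%, and 21 fell, 1.97%. Among 20694 protein-coding genes the shares were 2.86% and 3.46%. The filter set part of this contrast: 15 of the risen long noncoding RNAs and 86 of the risen protein-coding genes were among the 105.

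Genes of the methylation machinery were in 4 lists, each with at most 1 called gene when all replicates were used. In lists of this size that is near the 6.39% called of all tested genes. None of 13 tested methyltransferases and maintenance factors was called, and their median log2 fold change was 0.32. CMT3 was called higher and the median was 0.44 when untreated replicate 3 was left out. MET1 (AT5G49160), the maintenance enzyme for CG sites, had 56.8, 65.8 and 57.9 CPM in treated and 42.1, 46.0 and 51.6 CPM in untreated replicates. The groups did not overlap, but the difference missed the threshold (log2 fold change 0.37, SE 0.13, edgeR adjusted p = 0.110). CMT3 (AT1G69770) had 50.5, 55.5 and 48.9 CPM in treated and 30.0, 34.3 and 51.1 CPM in untreated replicates, so untreated replicate 3 overlapped the treated group. ROS1 (AT2G36490), the demethylase whose own gene depends on methylation, had 46.2, 61.6 and 40.7 CPM in treated and 64.7, 74.9 and 63.9 CPM in untreated replicates (edgeR adjusted p = 0.0776). Of 20 genes of the RNA-directed pathway only DMS3 rose, by 0.62 (SE 0.16, edgeR adjusted p = 0.0355), and 54.6% of its exon bases lie under exons of the other strand. Its call was lost without any 1 replicate other than untreated replicate 3. None of 11 demethylation and anti-silencing genes and none of 14 heterochromatin silencers was called. In the RNA-directed pathway 2 genes, and among heterochromatin silencers 1, were called higher without untreated replicate 3.

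The handling of nucleosides changed at a few steps. Of 21 tested genes for nucleoside transport, salvage and breakdown 4 rose and none fell, while the list median was -0.00. Of all tested genes 3.02% rose and 3.37% fell. The thymidine kinases TK1A and TK1B (AT5G23070), which return thymidine to the nucleotide pool, both rose. TK1B had 45.8, 40.4 and 41.1 CPM in treated and 25.3, 27.9 and 27.5 CPM in untreated replicates (log2 fold change 0.66, SE 0.11, edgeR adjusted p = 0.00359). TK1A (AT3G07800) had 26.8, 22.2 and 23.9 CPM in treated and 12.5, 15.2 and 11.3 CPM in untreated replicates (log2 fold change 0.90, SE 0.15, edgeR adjusted p = 0.00492). For both genes the groups were well separated and the call held under all alternatives tried. UPP, a plastid enzyme that salvages uracil, rose by 0.41 and PUP1, a purine permease, by 1.03.

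Among the genes that could bring the drug itself into metabolism, ENT3, UKL1 and CDA1 were not called. PUP1 and UPP, of the same list, were called higher, and whether they act on the drug was not tested. The nucleoside transporter ENT3 (AT4G05120) had 10.0, 8.83 and 7.69 CPM in treated and 9.39, 9.53 and 9.63 CPM in untreated replicates (log2 fold change -0.10, edgeR adjusted p = 0.756). UKL1, a uridine kinase, had a log2 fold change of -0.00 and CDA1, a cytidine deaminase, of -0.05 (edgeR adjusted p = 0.996 and 0.836). Downstream, both called genes of the 13 for pyrimidine and deoxynucleotide synthesis encode subunits of ribonucleotide reductase, the enzyme that makes deoxynucleotides. RNR1 (AT2G21790), the large subunit, had 95.4, 93.1 and 84.5 CPM in treated and 54.2, 53.8 and 75.9 CPM in untreated replicates (log2 fold change 0.57, SE 0.15, edgeR adjusted p = 0.0429). TSO2 (AT3G27060), a small subunit, had 149, 92.4 and 109 CPM in treated and 52.1, 81.0 and 69.5 CPM in untreated replicates (log2 fold change 0.79, SE 0.20, edgeR adjusted p = 0.0355). Untreated replicate 3 was the one nearest to the treated group for RNR1 and replicate 2 for TSO2. RNR1, TSO2, UPP and PUP1 each lost their call without treated replicate 1 or 3 or untreated replicate 1 or 2.

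A small number of DNA damage genes rose strongly. In plants the transcription factor SOG1 switches on damage genes, and its binding motif has been given as CTT and AAG with 7 bases of any kind between them. Of 40 tested damage genes 3 rose and none fell, beside 3.02% and 3.37% of all tested genes, with a list median of 0.28. SMR7 (AT3G27630), an inhibitor of cyclin-dependent kinases that halts the cell cycle after damage, had 3.09, 2.56 and 5.02 CPM in treated and 0.582, 0.394 and 0.368 CPM in untreated replicates (log2 fold change 2.97, SE 0.46, edgeR adjusted p = 0.00243). With 7, 5 and 5 untreated counts, SMR7 passed the filter on low counts only through treated plants, so its call is a description. PARP2 (AT4G02390), a poly(ADP-ribose) polymerase active at breaks, had 20.9, 19.1 and 25.8 CPM in treated and 5.90, 5.44 and 7.50 CPM in untreated replicates (log2 fold change 1.801, SE 0.28, edgeR adjusted p = 0.00417). XRI1, which X-rays induce, rose by 0.72 (SE 0.18, edgeR adjusted p = 0.0302), a call lost without any 1 of the treated replicates or without untreated replicate 1 or 2. Without untreated replicate 3, 7 genes of the list rose and 1 fell. BRCA1, which acts in repair by homologous recombination, was not called, with a log2 fold change of 0.71 (edgeR adjusted p = 0.157).

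The 250 bases before the starts of both strongly raised damage genes hold the motif once, shown in capitals in these sequences from TAIR10.1.
SMR7 promoter, chr3:10231568-10231817, minus strand: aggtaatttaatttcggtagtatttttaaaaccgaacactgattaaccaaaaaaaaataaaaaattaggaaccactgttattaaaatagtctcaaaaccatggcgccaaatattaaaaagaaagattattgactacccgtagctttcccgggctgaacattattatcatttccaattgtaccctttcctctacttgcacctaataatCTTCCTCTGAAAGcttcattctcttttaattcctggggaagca
PARP2 promoter, chr4:1049516-1049765, plus strand: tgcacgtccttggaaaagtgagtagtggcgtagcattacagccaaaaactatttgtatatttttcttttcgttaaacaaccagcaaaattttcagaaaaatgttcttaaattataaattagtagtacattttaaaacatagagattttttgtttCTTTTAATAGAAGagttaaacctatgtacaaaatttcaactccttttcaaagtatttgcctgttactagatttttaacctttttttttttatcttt
The motif reads the same on both strands. It was found before 8 of the 40 tested damage genes, 20%, and before 8.94% of all tested protein-coding genes. Among other lists the share ran from 0%, as for sulfur deficiency, to 23.08% for morning and for evening clock genes. XRI1 has no match in its window.

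Few genes of the dividing cell were called. Of 30 tested mitosis genes 4 rose and none fell, with a median of 0.36 and a positive log2 fold change in 29. PLE (AT5G51600), which cross-links microtubules in the dividing cell, had 31.3, 31.1 and 26.2 CPM in treated and 13.7, 17.2 and 20.8 CPM in untreated replicates (log2 fold change 0.77, SE 0.17, edgeR adjusted p = 0.0187). The mitotic cyclins CYCB1;4 and CYCB1;2 rose by 0.71 and 0.60, and KN, a syntaxin that builds the new cell plate, by 0.51. For KN, 33.5% of the exon bases lie under exons of the other strand. Of 24 replication genes only MCM4, a subunit of the replicative helicase, rose (0.56, SE 0.15, edgeR adjusted p = 0.0442), with a list median of 0.40 and a positive value in 22, and of 19 ribosome biogenesis genes only SWA2 rose (0.61, SE 0.15, edgeR adjusted p = 0.0318), with a list median of 0.36. A call of 1 gene in each of these 2 lists is close to the 3.02% of all tested genes that rose. Without untreated replicate 3, 13 mitosis, 9 replication and 9 ribosome biogenesis genes rose, and none fell. The calls of PLE, both cyclins, KN, MCM4 and SWA2 were each lost without treated replicate 1 or 2 or untreated replicate 1 or 2. In whole plants, a larger share of dividing cells and more RNA per cell cannot be told apart, and the same holds for every fall described here.

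Genes fell at every level of the jasmonate pathway: synthesis, repressors, breakdown and output. The hormone is made from plastid lipids, and as jasmonoyl-isoleucine it lets the receptor destroy JAZ repressors and so frees MYC2, which switches on the pathway's own genes, the JAZ genes included. It is then inactivated by oxidation, cleavage or sulfation. In the 4 jasmonate lists 30 of 67 tested genes fell and none rose, beside 3.37% and 3.02% of all tested genes. The medians were -0.14 for biosynthesis, -1.44 for JAZ repressors, -1.39 for breakdown and modification and -1.13 for signalling and output. Without untreated replicate 3, 32 fell, with 1 more in biosynthesis (8) and 1 more in signalling and output (10).

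Of 21 biosynthesis genes 7 fell. OPR3 (AT2G06050), the reductase that forms the jasmonate precursor in peroxisomes, had 51.6, 56.3 and 43.5 CPM in treated and 145, 186 and 112 CPM in untreated replicates (log2 fold change -1.55, SE 0.21, edgeR adjusted p = 0.00203). The other called members were LOX3, AOC1, OPCL1 and the peroxisomal acyl-CoA oxidases ACX1, ACX2 and ACX4, with changes between -0.52 (ACX1) and -1.37 (LOX3). OPR3 was called under all alternatives, and each of the other 6 lost its call without untreated replicate 2. LOX2 and AOS, which act early in the plastid, were not called: LOX2 (AT3G45140) had 322, 286 and 160 CPM in treated and 197, 199 and 269 CPM in untreated replicates, with full overlap of the groups.

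Of the 13 JAZ repressors 9 fell. JAZ7 (AT2G34600) had 1.06, 1.94 and 1.26 CPM in treated and 25.9, 35.6 and 14.9 CPM in untreated replicates. JAZ9 (AT1G70700) had 27.1, 26.6 and 22.1 CPM in treated and 146, 187 and 106 CPM in untreated replicates (log2 fold change -2.53, SE 0.25, edgeR adjusted p = 0.000396). JAZ2 (AT1G74950) had 28.1, 24.6 and 24.9 CPM in treated and 77.9, 93.4 and 64.4 CPM in untreated replicates (log2 fold change -1.60, SE 0.14, edgeR adjusted p = 2.78e-05). In all 3 genes untreated replicate 3 was the lowest untreated one and still lay far above the treated group. JAZ8 fell to 0.226, 0.155 and 0 CPM in treated replicates, against 2.83, 5.04 and 1.62 CPM in untreated ones. JAZ3, JAZ5, JAZ6, JAZ10 and JAZ12 fell as well, by 0.64 (JAZ12) to 2.28 (JAZ5) on the log2 scale, and JAZ12 lost its call without untreated replicate 2. JAZ1 (AT1G19180) had 57.5, 39.1 and 25.7 CPM in treated and 93.1, 99.3 and 70.0 CPM in untreated replicates, which was not called (edgeR adjusted p = 0.117).

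MYC2 and related factors bind the G-box CACGTG, which reads the same on both strands. A G-box lies within 250 bases before 4 of the 9 JAZ genes that fell, shown with the motif in capitals (TAIR10.1).
JAZ2 promoter, chr1:28150447-28150696, minus strand: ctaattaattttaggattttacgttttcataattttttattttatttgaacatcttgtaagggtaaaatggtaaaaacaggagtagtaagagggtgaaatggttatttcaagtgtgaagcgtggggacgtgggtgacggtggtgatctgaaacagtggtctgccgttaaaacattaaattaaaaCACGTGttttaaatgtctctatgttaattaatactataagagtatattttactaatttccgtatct
JAZ3 promoter, chr3:6119457-6119706, plus strand: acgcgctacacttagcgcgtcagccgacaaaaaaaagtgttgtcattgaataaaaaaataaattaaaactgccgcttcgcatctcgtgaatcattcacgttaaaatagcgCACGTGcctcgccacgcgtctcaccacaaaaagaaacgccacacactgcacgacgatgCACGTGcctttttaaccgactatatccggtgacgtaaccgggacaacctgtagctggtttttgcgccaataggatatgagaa
JAZ7 promoter, chr2:14572780-14573029, plus strand: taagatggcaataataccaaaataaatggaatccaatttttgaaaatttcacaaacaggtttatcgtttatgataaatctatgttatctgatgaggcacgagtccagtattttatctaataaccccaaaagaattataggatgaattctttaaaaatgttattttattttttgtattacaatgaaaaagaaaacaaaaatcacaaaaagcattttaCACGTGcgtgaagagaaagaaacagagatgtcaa
JAZ8 promoter, chr1:10596102-10596351, plus strand: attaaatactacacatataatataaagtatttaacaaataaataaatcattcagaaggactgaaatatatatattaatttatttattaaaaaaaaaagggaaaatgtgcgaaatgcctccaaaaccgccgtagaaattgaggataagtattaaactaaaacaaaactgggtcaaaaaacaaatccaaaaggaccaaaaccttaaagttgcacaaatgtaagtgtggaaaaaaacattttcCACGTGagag
Over the 30 jasmonate genes that fell, 7 windows held a G-box, 23.3%, and over the 37 tested jasmonate genes not called 1 did, 2.70%. It was present before 7.17% of all 20694 tested protein-coding genes, 11.9% of the 717 that fell and 5.91% of the 592 that rose. Among single lists outside jasmonate the share ran from 0%, as for indole glucosinolates, to 53.85% for morning clock genes. It was 38.1% for endoplasmic reticulum stress genes, so a high share is not particular to jasmonate genes. A match describes the letters of the window and is not evidence of binding.

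Enzymes that remove the hormone also fell, 5 of 8. ILL6 and IAR3 cleave jasmonoyl-isoleucine. ILL6 (AT1G44350) had 2.94, 4.03 and 3.85 CPM in treated and 37.0, 44.2 and 27.3 CPM in untreated replicates, and IAR3 33.8, 32.2 and 39.1 CPM in treated and 98.6, 100.4 and 60.5 CPM in untreated replicates (log2 fold change -1.304, SE 0.17, edgeR adjusted p = 0.000929). CYP94C1 and CYP94B1, cytochromes that oxidise it, fell by 1.47 and 2.22 on the log2 scale, and ST2A, a sulfotransferase of hydroxyjasmonate, by 1.62. CYP94B1 lost its call without treated replicate 1 or untreated replicate 2. CYP94B3 was not called, with at most 1.33 CPM in any replicate.

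Among signalling and output genes 9 of 25 fell. MYC2 (AT1G32640) had 32.6, 37.3 and 28.9 CPM in treated and 84.8, 116 and 76.3 CPM in untreated replicates (log2 fold change -1.49, SE 0.17, edgeR adjusted p = 0.000331), but 98.5% of its exon bases lie under exons of the other strand. NAC019 and NAC055, transcription factors downstream of MYC2, fell by 3.64 and 2.27 on the log2 scale. NAC019 (AT1G52890) had 0.678, 0.310 and 0.471 CPM in treated and 6.31, 8.51 and 3.82 CPM in untreated replicates. VSP2 (AT5G24770), a storage protein used as a jasmonate marker, had 22.9, 30.0 and 17.1 CPM in treated and 85.00, 67.4 and 78.5 CPM in untreated replicates (log2 fold change -1.72, SE 0.25, edgeR adjusted p = 0.00442). ORA47, CLH1 and RRTF1 fell by 2.49, 1.89 and 1.13 on the log2 scale. For RRTF1, 64.0% of the exon bases lie under exons of the other strand, and its call was lost without treated replicate 1 or 2 or untreated replicate 2, that of CLH1 without treated replicate 2. JRG21 and MYB113, the second a regulator of anthocyanin synthesis, were called from 1 count over all treated replicates each, so no fold is given, and both calls were lost without any 1 of the treated replicates or untreated replicate 1.

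**Figure D2:**
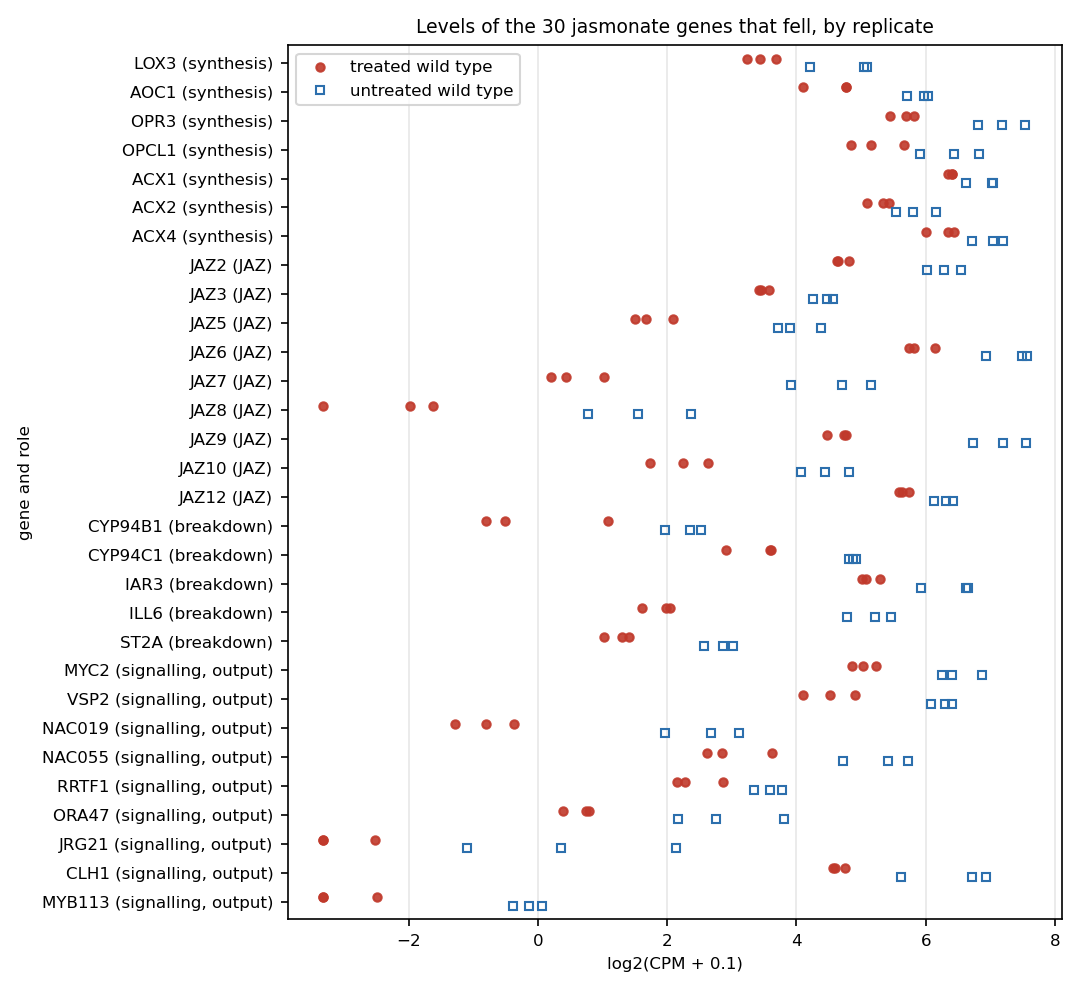
Levels of the 30 jasmonate genes that fell, as log2(CPM + 0.1), grouped by role. Filled circles are the 3 treated and open squares the 3 untreated wild-type replicates, and for every gene shown all treated replicates lie below all untreated ones.

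Glucosinolates are sulfur-rich defence compounds of the cabbage family, whose synthesis jasmonate is known to promote. Of 19 genes for the aliphatic kind 6 fell and none rose, and of 24 for the indole kind 4 fell and none rose. Of all tested genes 3.37% fell and 3.02% rose. The counts were 7 aliphatic and 6 indole genes lower without untreated replicate 3. SOT18 (AT1G74090), the sulfotransferase of the last core step, had 24.6, 26.9 and 25.0 CPM in treated and 47.4, 54.5 and 37.4 CPM in untreated replicates (log2 fold change -0.86, SE 0.14, edgeR adjusted p = 0.00307). MYB29, a regulator of the aliphatic branch, fell by 1.195 on the log2 scale, a call lost without treated replicate 2 or untreated replicate 2, and MYB34, a regulator of the indole branch, by 0.48, a call lost without any 1 of the 6 replicates. ASA1 (AT5G05730), which makes the tryptophan precursor anthranilate, had 43.0, 46.3 and 46.5 CPM in treated and 109, 97.1 and 70.5 CPM in untreated replicates (log2 fold change -1.03, SE 0.15, edgeR adjusted p = 0.00217).

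Genes that plants turn on in darkness and when sugar runs short made up the list with the largest number of falls among the 39 lists. Of 26 tested members 15 fell and none rose, beside 3.37% and 3.02% of all tested genes, with a median of -0.84. Without untreated replicate 3, 16 fell. SEN1 (AT4G35770), a dark-inducible gene, had 8.14, 14.1 and 10.9 CPM in treated and 163, 322 and 56.9 CPM in untreated replicates. ASN1 (AT3G47340), an asparagine synthetase that stores nitrogen in the dark, had 5.58, 9.53 and 10.4 CPM in treated and 73.5, 129.7 and 62.7 CPM in untreated replicates. The groups did not overlap, but the untreated replicates spread widely, and both genes lost their call without any 1 of the treated replicates or without untreated replicate 1, ASN1 also without untreated replicate 2 (log2 fold changes -4.03 and -3.38, edgeR adjusted p = 0.0188 and 0.0247).

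Within the list, 6 of the genes that fell act in the breakdown of branched-chain amino acids in mitochondria, which feeds respiration when sugar is scarce. DIN4 (AT3G13450), a subunit of the branched-chain keto acid dehydrogenase, had 16.9, 18.3 and 25.8 CPM in treated and 54.2, 68.9 and 40.1 CPM in untreated replicates (log2 fold change -1.42, SE 0.20, edgeR adjusted p = 0.00189). IVD (AT3G45300), which oxidises isovaleryl-CoA, had 20.13, 24.6 and 22.8 CPM in treated and 59.4, 76.3 and 38.6 CPM in untreated replicates (log2 fold change -1.37, SE 0.20, edgeR adjusted p = 0.00278). MCCA (AT1G03090), a subunit of the carboxylase of the next step, had 31.8, 38.4 and 42.1 CPM in treated and 123, 144 and 69.1 CPM in untreated replicates (log2 fold change -1.58, SE 0.23, edgeR adjusted p = 0.00310). BCAT2, the aminotransferase that opens the pathway, BCE2, another subunit of the dehydrogenase, and ETFQO, which passes the electrons on, fell by 2.19, 0.78 and 0.86 on the log2 scale. BCAT2 lost its call without treated replicate 1 or 2, and ETFQO without any 1 replicate other than untreated replicate 3. MCCB, the partner subunit of MCCA, was not called, at -0.30 (edgeR adjusted p = 0.181). In each of DIN4, IVD and MCCA untreated replicate 3 was the lowest untreated replicate.

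The other members that fell were the beta-glucosidase DIN2 (-2.72), the trehalose phosphate synthase relatives TPS11 (-1.63) and TPS9 (-0.65), the sugar transporter STP1 (-1.49), the transcription factors BZIP1 (-1.48) and GBF1 (-0.70), and GDH2, a glutamate dehydrogenase (-0.83). TPS9, BZIP1 and GDH2 lost their calls without any 1 replicate other than untreated replicate 3, and GBF1 without treated replicate 1 or 2 or untreated replicate 1. STP1 (AT1G11260) had 144, 157 and 144 CPM in treated and 399, 523 and 328 CPM in untreated replicates (edgeR adjusted p = 0.00702). KIN10 (AT3G01090), the catalytic subunit of the kinase SnRK1 that governs the starvation response, had 37.7, 44.2 and 42.8 CPM in treated and 42.7, 39.4 and 40.6 CPM in untreated replicates (log2 fold change 0.02, SE 0.12, edgeR adjusted p = 0.925). Of clock genes, which also follow light, 3 of 13 morning genes (RVE2, RVE4 and RVE7) and 1 of 13 evening genes (COR27) fell, with medians of -0.61 and -0.04. Each of these 4 calls was lost without treated replicate 1 or 2 or untreated replicate 1 or 2. Without untreated replicate 3 the counts were 4 and 2. Over all tested genes 3.37% fell. The part of the clock in the falls of the starvation list was not tested. None of 31 photosynthesis genes was called, with a median of 0.06.

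Genes of nitrogen assimilation were called higher more often than lower. Of 25 tested genes 8 rose and 2 fell, beside 3.02% and 3.37% of all tested genes, with a median of 0.28. With untreated replicate 3 left out, 10 rose and 2 fell. Those that rose span the path from uptake to amino acids: the nitrate transporter NRT1.1 (0.69) and its partner NRT3.1 (0.60), the ammonium transporter AMT1;3 (1.07), both nitrate reductases NIA1 (0.58) and NIA2 (0.60), the nitrite reductase NIR1 (0.72), the glutamine synthetase GLN1;2 (0.71) and the glutamate synthase GLT1 (0.64). GLN1;2 (AT1G66200) had 697, 685 and 861 CPM in treated and 387, 500.2 and 481 CPM in untreated replicates (edgeR adjusted p = 0.0214), a call lost without any 1 replicate other than untreated replicate 3. BT1 and BT2, scaffold proteins that repress nitrate uptake genes, fell. BT1 (AT5G63160) had 56.4, 72.1 and 60.3 CPM in treated and 121, 137 and 136 CPM in untreated replicates (log2 fold change -1.06, SE 0.18, edgeR adjusted p = 0.00571). Among the 8 that rose, the edgeR adjusted p lay between 0.0148 (AMT1;3) and 0.0494 (NIA1), and each lost its call without untreated replicate 1 or 2. BT2 lost its call without any 1 replicate other than untreated replicate 3.

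In the sulfur list 4 of 18 genes rose and 1 fell, beside 3.02% and 3.37% of all tested genes, with a median of 0.59. SULTR1;1 (AT4G08620), the root sulfate transporter induced by sulfur shortage, had 2.41, 3.41 and 3.37 CPM in treated and 0.166, 0.473 and 0.956 CPM in untreated replicates (log2 fold change 2.48, SE 0.57, edgeR adjusted p = 0.0234). APR2 (AT1G62180), the main reductase of activated sulfate, had 391, 296 and 288 CPM in treated and 115, 127 and 180.5 CPM in untreated replicates (log2 fold change 1.205, SE 0.29, edgeR adjusted p = 0.0383), and 46.4% of its exon bases lie under exons of the other strand. LSU2 and LSU4, of a small family named for its response to low sulfur, rose by 1.51 and 1.90, while their neighbour LSU1 did not (0.28, edgeR adjusted p = 0.741). HMT3 (AT3G22740), a homocysteine methyltransferase that makes methionine, had 2.64, 1.39 and 1.65 CPM in treated and 11.6, 16.0 and 13.3 CPM in untreated replicates (log2 fold change -2.84, SE 0.34, edgeR adjusted p = 0.000551). HMT3 was called under all alternatives, while SULTR1;1, APR2, LSU2 and LSU4 each lost their call without any 1 of the treated replicates or without untreated replicate 1 or 2. Among other nutrient genes NAS2, which makes the metal chelator nicotianamine, rose by 1.46 and PHO2, which limits phosphate uptake, by 0.96.

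**Figure D3:**
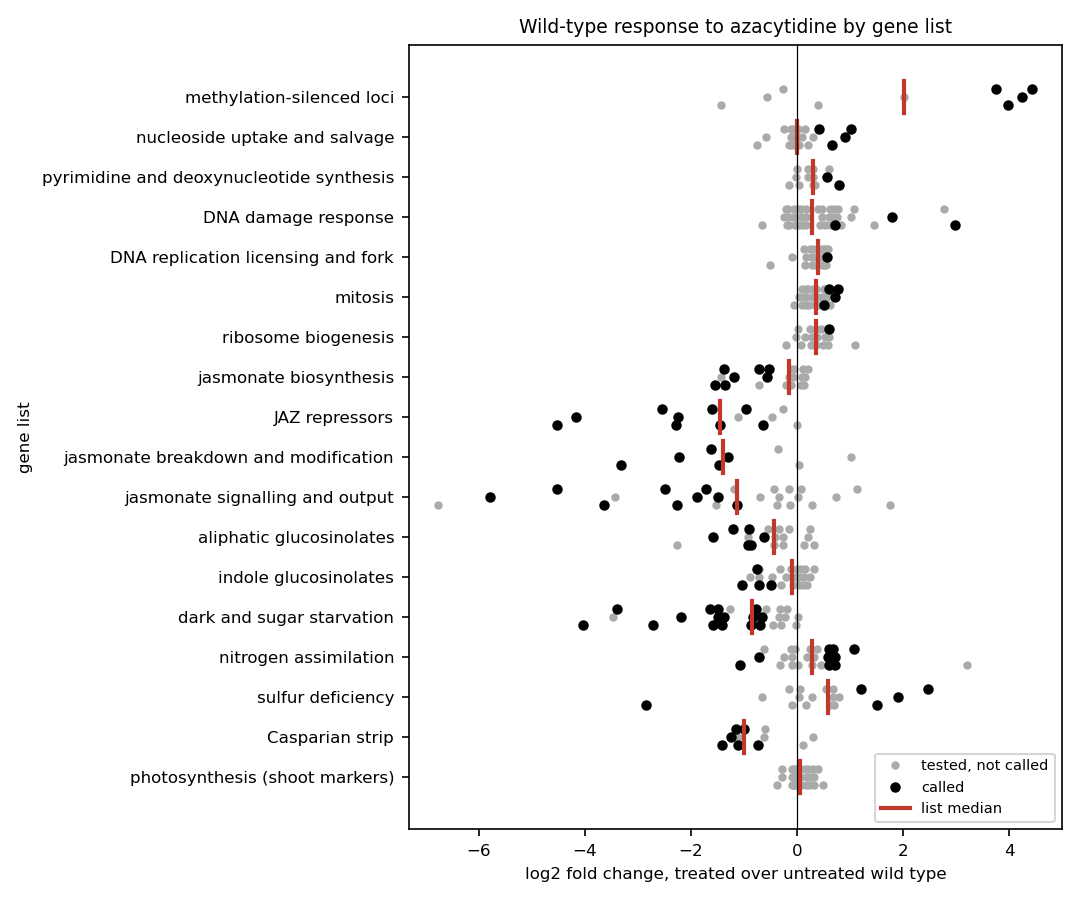
Log2 fold changes of treated over untreated wild type for the tested members of 18 gene lists. Black points were called and grey points were not, the red bar is the list median, and FWA, in the top row, is drawn at its lower bound. The starvation list holds 15 called genes, all below 0, and the nitrogen list 8 above 0 and 2 below.

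In the root, genes of the Casparian strip, a band of lignin that seals endodermal walls, were lower. Of 11 tested genes 6 fell and none rose, with a median of -1.005. With untreated replicate 3 left out, 6 fell and 1 rose. CASP1 (AT2G36100), a scaffold protein of the strip, had 7.16, 7.67 and 10.2 CPM in treated and 16.9, 16.1 and 17.2 CPM in untreated replicates (log2 fold change -1.005, SE 0.19, edgeR adjusted p = 0.00822). CASP2 (AT3G11550) had 1.81, 3.41 and 2.67 CPM in treated and 5.90, 7.25 and 7.72 CPM in untreated replicates (log2 fold change -1.40, SE 0.26, edgeR adjusted p = 0.00752). CASP4, the peroxidase PER64, the dirigent protein ESB1 and UCC1 fell as well. CASP1 lost its call without treated replicate 1, PER64 without treated replicate 1 or 2, ESB1 without treated replicate 1 or 2 or untreated replicate 2, and CASP4 without treated replicate 1 or 2 or untreated replicate 1 or 2. For ESB1, 84.3% of the exon bases lie under exons of the other strand. Of 18 genes for suberin, which the endodermis also lays down, 1 fell (MYB92), with a list median of -0.46. Of 16 root hair genes 1 fell (AGP3), and 2 did without untreated replicate 3, with a list median of -0.61. A call of 1 gene in each of these 2 lists is near the 3.37% of all tested genes that fell. The calls of MYB92 and AGP3 were both lost without treated replicate 1 or untreated replicate 2. A smaller share of differentiated endodermis and less RNA of these genes per cell cannot be told apart here.

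Of 29 salicylate and immunity genes 3 rose and 1 fell, beside 3.02% and 3.37% of all tested genes. Without untreated replicate 3, 2 rose and 1 fell. PR2 (AT3G57260), a glucanase used as a marker of salicylate, had 66.9, 17.1 and 30.1 CPM in treated and 1.16, 0.0788 and 1.25 CPM in untreated replicates (log2 fold change 5.50, SE 1.02, edgeR adjusted p = 0.0298), but lost its call when treated replicate 1 or 3 or any untreated replicate was left out. PR1 (AT2G14610) had 93.5, 28.3 and 24.7 CPM in treated and 12.9, 0 and 0.147 CPM in untreated replicates, and was not called (edgeR adjusted p = 0.199). CRK6 (AT4G23140), a cysteine-rich receptor-like kinase named for the size of its change, had 16.3, 6.35 and 9.73 CPM in treated and 0.415, 0.0788 and 0.221 CPM in untreated replicates (log2 fold change 5.46, SE 0.63, edgeR adjusted p = 0.000636). Its untreated counts were 5, 1 and 3, near the floor. It passed the filter on low counts only through treated plants, so its call is a description. The receptor-like proteins RLP33 and RLP34 and the receptor kinase RK1 rose by 1.62, 1.69 and 1.94. RLP33 lost its call without untreated replicate 1 or 2, RLP34 without treated replicate 1 or untreated replicate 2 or 3, and RK1 without treated replicate 1 or 2 or untreated replicate 1 or 2. None of 27 early wound and elicitor genes was called, with a median of -0.49, and 1 fell without untreated replicate 3.

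Other single genes completed the picture. BIP3 (AT1G09080), a chaperone of the endoplasmic reticulum made under stress, had 9.72, 4.57 and 6.04 CPM in treated and 0.748, 1.103 and 0.735 CPM in untreated replicates (log2 fold change 2.96, SE 0.53, edgeR adjusted p = 0.00818). NAC103, a transcription factor of the same stress, rose by 1.81, a call lost without treated replicate 1 or 3 or untreated replicate 1 or 2, and the other 19 tested genes of that list were not called. SQN (AT2G15790), a cyclophilin that aids microRNA action, had 42.5, 45.5 and 46.9 CPM in treated and 11.4, 14.8 and 18.16 CPM in untreated replicates (log2 fold change 1.60, SE 0.20, edgeR adjusted p = 0.00101). Of 25 flowering genes 5 fell and none rose, beside 3.37% and 3.02% of all tested genes, with a median of -0.19. SPL3 and SPL4, targets of the microRNA miR156, fell by 1.302 and 1.101 on the log2 scale, the floral integrator SOC1 by 0.60, and the floral repressors MAF2 and MAF3 by 0.49 and 0.56. For SPL3, 97.3% of the exon bases lie under exons of the other strand. SPL4, MAF2 and MAF3 lost their calls without treated replicate 1 or 2 or untreated replicate 1 or 2, and SOC1 without treated replicate 2 or untreated replicate 2. GH3.3 (AT2G23170), which conjugates auxin to amino acids, had 26.9, 26.2 and 26.3 CPM in treated and 11.1, 9.22 and 12.6 CPM in untreated replicates (log2 fold change 1.26, SE 0.15, edgeR adjusted p = 0.000343). CYP81D11, a cytochrome induced by foreign chemicals, fell to 9.65, 7.90 and 11.9 CPM in treated replicates, against 75.5, 109.7 and 54.0 CPM in untreated ones. Of 28 detoxification genes 1 rose and 2 fell, counts near the 3.02% and 3.37% of all tested genes. None of the detoxification genes rose and 6 fell without untreated replicate 3. Of 26 abscisic acid and drought genes 2 rose and 3 fell, beside 3.02% and 3.37% of all tested genes. Their median was -0.16, and 3 rose and 3 fell without untreated replicate 3. The catabolic genes CYP707A1 and CYP707A2 rose by 0.91 and 0.90 while the responsive genes RD20 and RD26 fell by 2.14 and 2.02 on the log2 scale. Each of these 4 calls was lost without treated replicate 1 or 3 or untreated replicate 1.

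The response of wild type was set against that of the memory line, which had 2 treated and 2 untreated replicates and shares no samples with it. In the memory line 163 genes were called, 105 up and 58 down, and 122 of them were also called in wild type, 121 in the same direction. Of the 1408 genes called in wild type 1145, 81.3%, had the same sign in the memory line, against 60.04% of all tested genes. The difference between both responses was called for 4 genes, 0.0182% of those tested, and all 4 had the lower log2 fold change in wild type. At an unadjusted p under 0.05 there were 1891, and without untreated wild-type replicate 3 there were 48 calls.

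scpl31, a gene for a serine carboxypeptidase-like protein, was the only one of the 4 called in wild type. It had 25.1, 25.0 and 22.4 CPM in treated and 40.9, 50.7 and 40.9 CPM in untreated wild type (log2 fold change -0.87, SE 0.14, edgeR adjusted p = 0.00267). In the memory line it had 28.9 and 24.1 CPM in treated and 8.39 and 10.6 CPM in untreated replicates, a rise of 1.49 (SE 0.18, edgeR adjusted p = 0.00116). The difference was -2.36 (SE 0.22, edgeR adjusted p = 0.00154). The other 3 genes had log2 fold changes in wild type of 0.03 (AT1G52120), -0.11 (AT1G74770) and -0.24 (AT3G62040), none of them called, and rose in the memory line, where their untreated level was low. AT1G74770 had 41.1, 34.6 and 34.5 CPM in treated and 43.6, 38.9 and 36.7 CPM in untreated wild type, beside 35.2 and 33.8 CPM in the treated and 13.3 and 14.2 CPM in the untreated memory line.

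**Figure D4:**
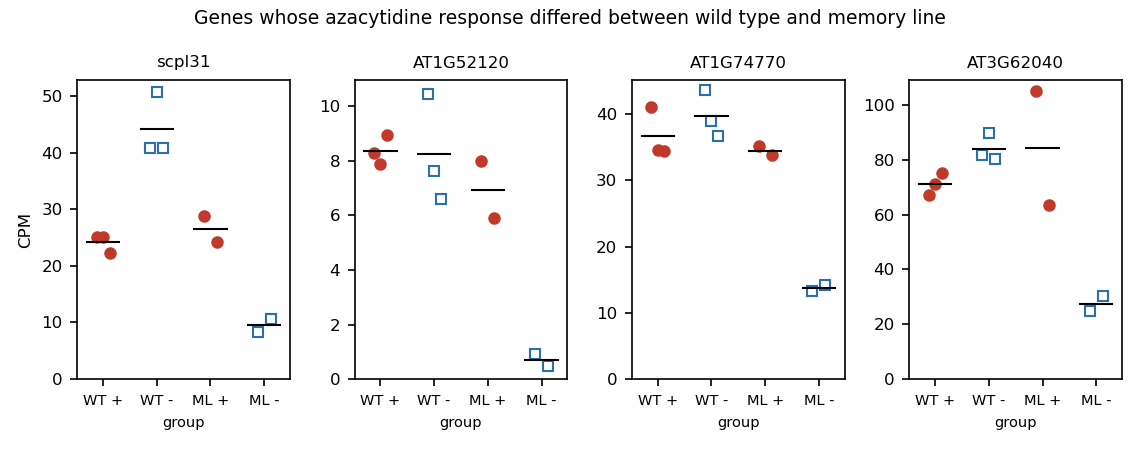
CPM per replicate of the 4 genes whose response differed between the genotypes, in treated (WT +) and untreated (WT -) wild type and in the treated (ML +) and untreated (ML -) memory line. Bars are group means of 3 wild-type or 2 memory-line replicates, and in each panel the untreated memory line is the lowest group.

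List medians were set side by side for the genotypes, without a test of their difference. Medians of the log2 fold change were -1.44 in wild type and -1.06 in the memory line for JAZ repressors, and 2.01 in wild type and 3.24 in the memory line for silenced loci. The medians of silenced loci cover only the 9 tested ones, since the filter left out loci without enough counts. For the starvation list they were -0.84 in wild type and -0.18 in the memory line, where none of its 26 members was called. For the sulfur list they were 0.59 in wild type and -0.73 in the memory line, where 2 members fell and none rose. No member of either list was called for the difference between the responses. DIN4 and IVD were at -0.16 and -0.07 in the memory line, each with an edgeR adjusted p of 0.343 for the difference.

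**Figure D5:**
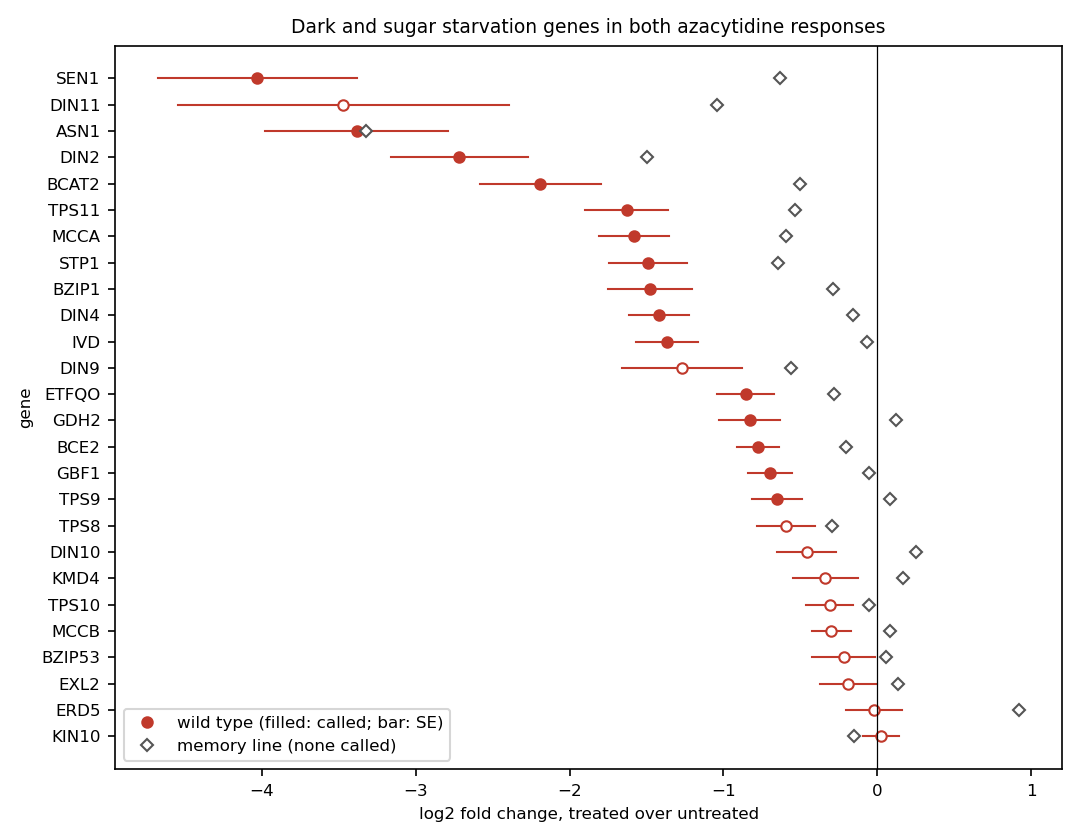
Log2 fold changes on azacytidine of the 26 tested dark and sugar starvation genes, in wild type (circles, filled where called, with the standard error) and in the memory line (diamonds, none called). In wild type 15 genes were called, all of them lower, while most diamonds lie closer to 0, and ASN1 lies at -3.38 in wild type and -3.32 in the memory line.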

How the data were processed

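RNA libraries (TruSeq version 2, a kit that does not mark strand) were sequenced with 100-base reads, per the labels' protocols. The authors deposited raw counts per gene and technical library, which carry no normalization. Per the submitters' processing notes, TAIR10 was the genome and DESeq2 a tool used, with no version; which aligner and counter were run is not given in the sources used. The 5 entries that name no gene were left out of library sizes and tests. They include reads in no gene, 48.3% to 49.0% of the uniquely aligned reads per wild-type replicate, and 6.49% to 11.4% of reads had no unique place. The files hold 33977 identifiers, of which 32548 matched the RefSeq annotation TAIR10.1, the source of symbols, products and sequences.

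Counts were summed per biological replicate. Genes were filtered with filterByExpr by group (minimum count 10, minimum total 15), scaled with TMM and tested with the quasi-likelihood test of edgeR 4.0.16 in R 4.3.3, with all 4 groups of the series in the fit, no block and Benjamini-Hochberg adjustment over 22031 genes. Besides the genes so marked above, LSU4 passed the filter on low counts only through treated plants. JAZ8, NAC019, JRG21 and MYB113 passed it only through untreated plants, so these calls too are descriptions. The common biological coefficient of variation was 0.166. Standard errors are the log2 fold change over the square root of F. On simulated counts for this comparison, 86% of 2-fold and 100% of 4-fold changes were recovered. The changed genes were drawn from those with high counts. The same spread was set for all genes, with no outlying replicate. limma 3.58.1 and DESeq2 1.42.0 served as alternatives. Same-numbered replicates were checked for pairing: the correlations of their deviations were 0.204, -0.0071 and 0.0363, so the numbers do not pair them. Promoter windows are the 250 bases before the annotated start.

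The comparison, the members and the 39 gene lists were chosen with earlier results of these data known, so no list carries a test of its own. A rule picked genes to name: fixed genes, the called genes with a symbol of largest change (mean of at least 5 CPM) or smallest adjusted p, up to 5 called members per list (all for jasmonate, methylation and DNA damage) and the genes called for the difference between genotypes. The text describes only part of them and leaves out, among others, PCR1, bZIP, SIS, FAMT, CYP71B22, TIP2;3, BGLU5, ERF1, ERF2 and ORA59. The fixed genes MSH1 and DDM1 were not called (log2 fold changes 0.52 and 0.32, edgeR adjusted p = 0.175 and 0.344). Other genes named as list members, markers or product groups were added after their values were seen.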

Additional observations from a re-analysis of the deposited data

Results flagged for a closer look

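The response of scpl31 differed between the genotypes by a test of the difference itself: wild type minus memory line was -2.36 on the log2 scale (SE 0.22, edgeR adjusted p = 0.00154), with a fall in all 3 treated wild-type replicates relative to all 3 untreated ones and a rise in both treated memory-line replicates.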

How the results depend on the processing

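The number of genes called in wild type lay between 1011 and 2038 under the 9 alternatives that kept all replicates, with 1323 under the replicate block (edgeR, replicate number as an additional term; the numbers do not pair the samples). Leaving out 1 replicate gave 432 to 2500 calls; the highest followed from leaving out untreated replicate 3 and the lowest from treated replicate 1. The 4 genes called for the difference became 7 with no filter on low counts, 93 with the DESeq2 test, 1 with limma voom and 11 under the replicate block, and leaving out 1 replicate gave 1 to 48. The cause was not tested. Of the 132 called genes picked by rule, not all of them described above, 50 stayed called in each alternative that tested them and none changed sign. Leaving out 1 replicate ended 8 to 69 of these calls. With 3 replicates a group, 86% of simulated 2-fold changes were recovered, but only genes with high counts were changed and no replicate was outlying. Recovery for genes with few counts was not simulated. Smaller changes, and 2-fold changes of such genes, may be missed.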
